A study of Mus musculus with 118 samples.

Results

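Polycomb chromatin is usually described at gene promoters. The sites described here lie elsewhere. They are the RING1B peaks under 8000 bp wide that overlapped at least 1 bp of a SUZ12 peak and of a PCGF2 peak and overlapped no promoter, a promoter being the transcription start site (TSS) of a curated RefSeq transcript plus or minus 2500 bp. The 466 sites, of 18643 RING1B peaks (2.5%), were chosen by these measured positions and widths. They were 13.2% of the 3540 RING1B peaks that carried both other factors, and covered 1.82 Mb. Another 50 non-promoter peaks with the same factors were 8000 bp or wider and are not members.

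The peaks come from calibrated ChIP-seq, in which human HEK293T cells are mixed in as an internal standard, in untreated mouse embryonic stem cells (ESCs). The PRC1CPM line (Ring1a I50A/D53K, with Ring1b alleles that tamoxifen switches from wild type to I53A/D56K, and Rosa26::ERT2-Cre) was profiled for RING1B, SUZ12 and PCGF2 in 3 samples each. The PRC1CKO line (Ring1a-/-, Ring1b fl/fl, Rosa26::ERT2-Cre) also entered the RING1B and SUZ12 lists, through 3 SUZ12 samples and through RING1B data not analysed here. The labels give each line as a single clone of E14 cells. Both lines therefore lacked RING1A activity before any treatment, PRC1CPM through the mutations and PRC1CKO through the deletion, and the RING1B peaks were further required by the authors to lose signal when tamoxifen removed RING1B from PRC1CKO cells. Each list is a single set of positions with no height and no replicates, so the depth behind a site is not known, and no value below concerns tamoxifen-treated cells.

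RING1B is the E3 ligase of Polycomb repressive complex 1 (PRC1) and ubiquitylates histone H2A. SUZ12 is a core subunit of PRC2, which methylates H3K27, and PCGF2 is a subunit of canonical PRC1, whose CBX proteins bind that methyl mark. In ESCs these complexes are best known at CpG islands, stretches rich in the CpG dinucleotide that DNA methylation has depleted from the rest of the genome, and at the promoters of silent developmental genes. CpG islands away from annotated promoters, often called orphan islands, are known to carry the same marks.

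The DNA is shown for sites at both ends of the range of CpG content at the peak midpoint. The 200 bp stretch with the most CpG for its base composition (GC content at least 50%, outside every annotated exon) anywhere in the RING1B peak is printed for the 3 sites with the highest CpG observed/expected at their midpoint and for the 3 with the lowest. CpG observed/expected is the number of CpGs divided by the number that the C and G content would give by chance. Sequences are the plus strand of GRCm38 (mm10), with each CpG in capitals.
Tenm3 site (highest CpG at midpoint), chr8:48555324-48555523: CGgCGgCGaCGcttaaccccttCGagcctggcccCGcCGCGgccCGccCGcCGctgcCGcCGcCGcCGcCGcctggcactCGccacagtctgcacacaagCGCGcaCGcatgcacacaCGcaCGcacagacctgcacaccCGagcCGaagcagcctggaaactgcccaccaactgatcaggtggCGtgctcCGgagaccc
Lin28b site (highest CpG at midpoint), chr10:45486014-45486213: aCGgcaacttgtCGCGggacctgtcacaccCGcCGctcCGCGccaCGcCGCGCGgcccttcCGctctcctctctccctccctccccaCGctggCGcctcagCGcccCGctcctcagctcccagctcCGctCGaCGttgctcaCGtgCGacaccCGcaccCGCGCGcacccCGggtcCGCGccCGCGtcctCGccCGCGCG
Apba1 site (highest CpG at midpoint), chr19:23892130-23892329: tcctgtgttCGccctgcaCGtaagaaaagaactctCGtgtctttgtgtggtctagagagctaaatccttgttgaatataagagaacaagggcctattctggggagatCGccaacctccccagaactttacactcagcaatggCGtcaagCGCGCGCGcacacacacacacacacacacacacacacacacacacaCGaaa
Dgkz site (lowest CpG at midpoint), chr2:91975344-91975543: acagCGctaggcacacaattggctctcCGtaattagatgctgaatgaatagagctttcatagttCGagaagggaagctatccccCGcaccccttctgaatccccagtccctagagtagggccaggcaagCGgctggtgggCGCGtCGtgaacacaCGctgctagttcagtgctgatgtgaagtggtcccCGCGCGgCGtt
Gm46735 site (lowest CpG at midpoint), chr2:36203244-36203443: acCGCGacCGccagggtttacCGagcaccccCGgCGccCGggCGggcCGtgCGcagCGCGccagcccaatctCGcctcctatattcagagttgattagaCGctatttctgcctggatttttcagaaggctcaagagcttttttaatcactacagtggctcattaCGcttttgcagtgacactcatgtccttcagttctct
Rasgrf1 site (lowest CpG at midpoint), chr9:89868418-89868617: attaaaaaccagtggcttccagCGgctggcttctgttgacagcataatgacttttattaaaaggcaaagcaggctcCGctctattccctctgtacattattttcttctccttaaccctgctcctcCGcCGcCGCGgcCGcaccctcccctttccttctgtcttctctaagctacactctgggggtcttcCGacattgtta
The first 3 stretches, from the sites nearest to Tenm3, Lin28b and Apba1, hold 26, 34 and 10 CpGs, with an observed/expected of 1.05, 1.32 and 0.833. Being searched over the whole peak and outside exons, a stretch need not lie at the midpoint, and that of Apba1 has fewer CpGs than those of Dgkz and Gm46735. The other 3, from the sites nearest to Dgkz, Gm46735 and Rasgrf1, hold 13, 15 and 8, with an observed/expected of 0.815, 1.01 and 0.703. At these last 3 sites the stretch lay away from the CpG-poor midpoint. Each stretch is the best of all positions in its peak, so finding one does not set a site apart. With exons included, a stretch of at least 0.6 was found in 98.9% of members and 85.3% of all RING1B peaks.

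At these sites the peaks of the 3 factors differed in width. The RING1B peaks had a median width of 3652 bp (interquartile range 2692 to 4945, from 471 to 7872 bp). The widest SUZ12 peak on each site had a median of 4031 bp, and was wider than the RING1B peak at 301 sites (64.6%). The widest PCGF2 peak had a median of 1985 bp and was narrower than the RING1B peak at 458 sites (98.3%). The SUZ12 peaks covered a median of 98.7% of the RING1B peak and at least 90% of it at 337 sites. The PCGF2 peaks covered a median of 56.7%, and under 50% at 170 sites. Both covered at least 90% of the RING1B peak at only 16 sites. The midpoints lay close together, with a median offset from the RING1B midpoint of 258 bp for SUZ12 and 244 bp for PCGF2. These values come from the lists that chose the sites and from different peak calling rules, so they are a description, with no test.

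**Figure D1:**
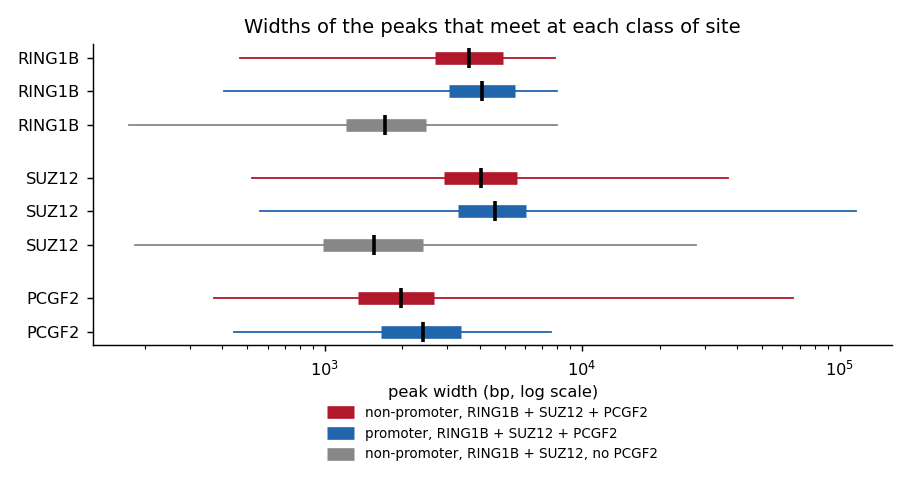
Widths in bp, on a log axis, of the RING1B peak and of the widest overlapping SUZ12 and PCGF2 peak for the 466 non-promoter sites, 2482 promoter sites and 998 non-promoter sites without PCGF2. Thin lines run from the lowest to the highest value, thick bars span the interquartile range and black marks are medians (3652, 4075 and 1710 bp for RING1B from top to bottom).

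Widths were next set beside those of 2 other classes of RING1B peak under 8000 bp. The first is the 2482 promoter sites with the same 3 factors, whose RING1B peaks had a median width of 4075 bp. There, SUZ12 and PCGF2 covered a median of 99.3% and 61.5% of the RING1B peak. The widest SUZ12 peak was wider than the RING1B peak at 70.6% of these promoter sites. The widest PCGF2 peak was narrower than it at 98.6%, and both factors covered at least 90% of it at 80 sites. The order of widths was thus shared by promoter sites. The second is the 998 non-promoter sites with SUZ12 but no PCGF2, whose RING1B peaks had a median width of 1710 bp and were covered to 80.6% by SUZ12. Among non-promoter RING1B peaks under 8000 bp with SUZ12, those with PCGF2 made up 31.8% of 1464. The SUZ12 peak of a member also reached a curated promoter at 12 of 466 sites. It took in a further RING1B peak at 16 (3.43%), against 39 of the 2482 promoter sites (1.57%). These counts were not taken over all RING1B peaks. They cover single called SUZ12 peaks only, and a domain can be split into several peaks. PCGF2 peaks were not counted in this way, and that at the member nearest to Evx2 measured 65663 bp. Another RING1B peak with all factors lay within 5000 bp of 54 members, and a promoter peak with all factors within 20 kb of 95. Whether members are edges of promoter domains was not tested.

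The 3 members nearest below 8000 bp measured 7872 bp (nearest TSS Foxo6), 7863 bp (Pax2) and 7821 bp (D930028M14Rik). The 3 non-promoter peaks nearest above it, which are not members, measured 8001 bp (Rbm28), 8026 bp (Gm27252) and 8127 bp (Platr30). The members nearest to a promoter lay 2564 bp from the TSS of Grik2, a kainate receptor subunit, 2688 bp from that of Mir1982 and 2720 bp from that of 2700062C07Rik. All 3 had a predicted RefSeq TSS within 2500 bp.

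The sites had less CpG around their midpoint than promoters with the same factors, and about as much as all RING1B peaks. Their median CpG observed/expected in the 1000 bp around the RING1B midpoint was 0.612 (interquartile range 0.460 to 0.734, from 0.0949 to 1.12), with a median GC content of 58.2% and a median of 50 CpGs. Promoter sites had a median observed/expected of 0.701 and non-promoter sites without PCGF2 one of 0.486. Over all RING1B peaks the medians were an observed/expected of 0.583, a GC content of 56.8% and 46 CpGs. Differences were taken within each of the 19 autosomes and averaged, and tested with an exact two-sided permutation test that flips the sign of each autosome's difference, adjusted over 13 comparisons by the Benjamini-Hochberg method. The members were lower than promoter sites by this measure on 17 of 19 autosomes, with a mean difference of -0.0935 ± 0.0131 (SE over autosomes; exact test, adjusted p = 9.92e-05). They were higher than non-promoter sites without PCGF2 on 19 of 19 autosomes, with a mean difference of 0.119 ± 0.00993 (exact test, adjusted p = 4.96e-05; the unadjusted p of 3.815e-06 is the smallest this test can give). Counted over the whole RING1B peak instead of 1000 bp, the difference from sites without PCGF2 was -0.000845 ± 0.00861 (exact test, adjusted p = 0.947). The median widths of these peaks were 3652 and 1710 bp, and the part of width in this change was not tested. Peaks are not biological replicates, and these p-values describe differences along the genome in these lists and not between cultures.

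**Figure D2:**
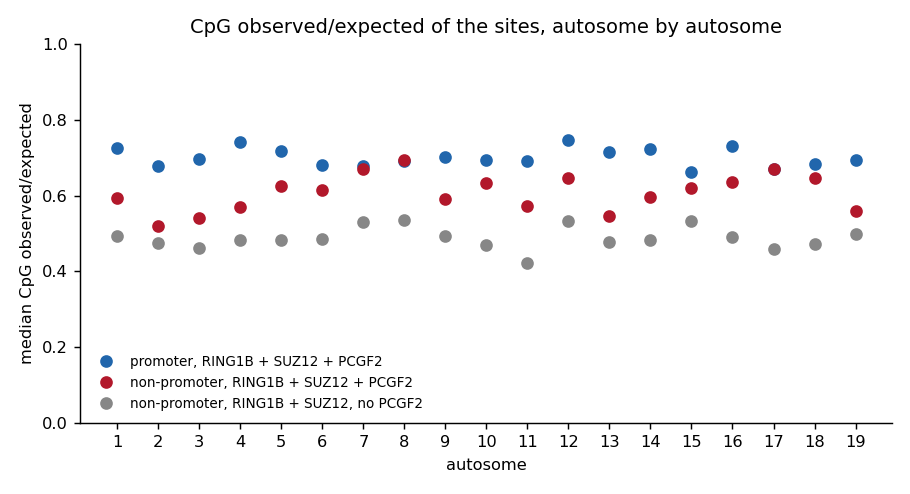
Median CpG observed/expected in the 1000 bp window on each of the 19 autosomes for the 3 classes of site. The non-promoter sites with all factors lie between 0.520 and 0.695, above the non-promoter sites without PCGF2 on every autosome and below the promoter sites on 17 of 19.

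Along the DNA the CpG enrichment was concentrated at the centre of the peaks. The mean density at the members was 6.04 CpGs per 100 bp in the central 200 bp and 1.16 per 100 bp at 4 to 5 kb from the midpoint, a ratio of 5.21. At promoter sites the same values were 7.34 and 0.998, a ratio of 7.35, and at non-promoter sites without PCGF2 they were 4.68 and 1.37, a ratio of 3.41.

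**Figure D3:**
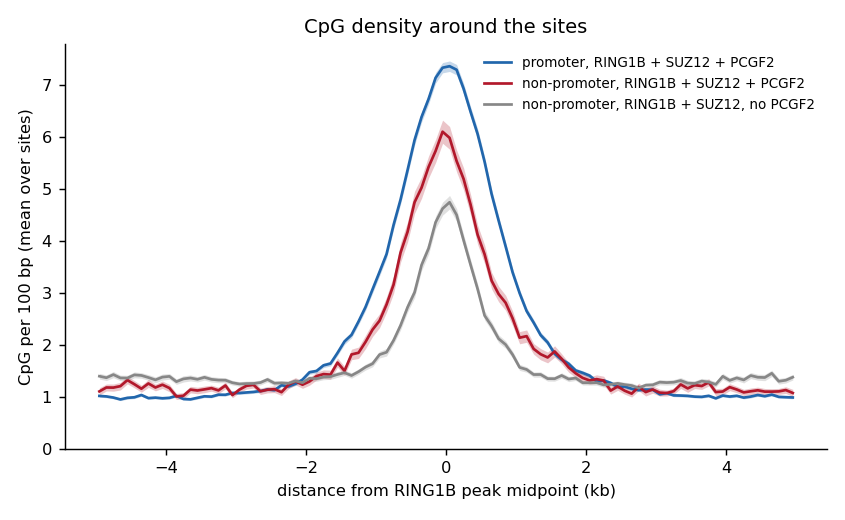
Mean number of CpGs per 100 bp against distance from the RING1B midpoint in kb, with bands of 1 SE over sites. The curve of the non-promoter sites with all factors peaks at 6.09 CpGs per 100 bp, between promoter sites (7.35) and non-promoter sites without PCGF2 (4.74).

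Most members held a CpG island, counted as at least 1 stretch of 200 bp with GC content of at least 50% and CpG observed/expected of at least 0.6 within 1000 bp of the midpoint. It was present at 447 of 466 sites (95.9%, Wilson 95% interval 93.7 to 97.4), against 87.1% of all RING1B peaks, 98.3% of promoter sites and 92.3% of non-promoter sites without PCGF2. The mean difference from promoter sites was -2.42 ± 0.721 percentage points (exact permutation test over 19 autosomes, adjusted p = 0.00686) and that from sites without PCGF2 was 3.34 ± 1.23 points (exact test, adjusted p = 0.0252). This loose definition is met by nearly every class, and both calls were lost under some alternatives. Under a strict definition (500 bp, GC content at least 55%, observed/expected at least 0.65) the shares were 78.8% of members, 92.8% of promoter sites, 51.5% of sites without PCGF2 and 62.8% of all RING1B peaks. The 19 members without an island had a median observed/expected of 0.192, and their median width was 4454 bp where those with one had 3623 bp. Searched over the whole peak, 461 of 466 members (98.9%) held such a stretch, against 85.3% of all RING1B peaks, 99.8% of promoter sites and 92.6% of the narrower sites without PCGF2.

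Lower-case bases in the reference, which mark repeats, filled a mean of 10.95% of the 1000 bp windows of members. This was more than at promoter sites (8.12%) by a mean of 2.48 ± 0.669 points (exact test, adjusted p = 0.00375, higher on 16 of 19 autosomes). The difference from sites without PCGF2 (11.9%) was -1.25 ± 0.660 points and did not pass (exact test, adjusted p = 0.106). Over a 2000 bp window it passed, at -2.67 points, and over the whole peak it had the other sign, at 1.85 points.

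The nearest curated TSS lay a median of 22.3 kb from the members' edges (interquartile range 10.3 to 52.7 kb). It was within 10 kb for 112 sites, 10 to 50 kb away for 231 and over 50 kb away for 123, of which 60 were over 100 kb away. CpG observed/expected had medians of 0.620, 0.594 and 0.640 in these 3 bands of distance, and widths had medians of 3780, 3720 and 3443 bp. The 3 bands thus had similar CpG content and width. The site lay upstream of its nearest TSS in 209 cases and downstream in 257. The 466 sites had 440 different nearest genes.

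**Figure D4:**
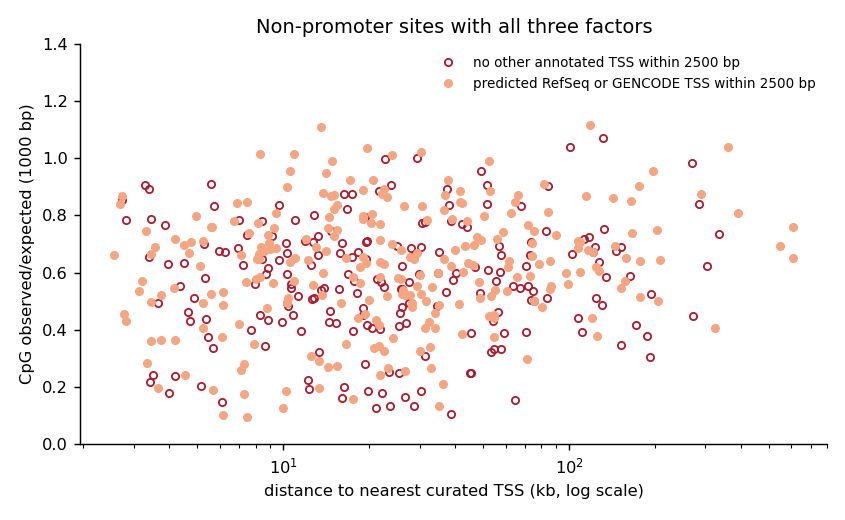
CpG observed/expected in 1000 bp at each of the 466 sites against the distance to the nearest curated TSS in kb (log axis). Filled points are the 261 sites with a predicted RefSeq or GENCODE TSS within 2500 bp, and open points the 205 without one. Distances run from 2.56 to 610.3 kb, and the 3 nearest and the 5 farthest sites are filled points.

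Whether a site counts as non-promoter depends on the annotation. A TSS that RefSeq only predicts lay within 2500 bp of the peak at 156 members (33.5%, Wilson 95% interval 29.3 to 37.9), against 47.1% of all RING1B peaks and 19.7% of non-promoter sites without PCGF2. The share was higher in members than in sites without PCGF2 on 17 of 19 autosomes, by a mean of 14.0 ± 2.42 points (exact permutation test, adjusted p = 0.000149). Since members are wider, the comparison was repeated with the midpoint alone, a choice made after the widths were seen, and the difference was 13.1 ± 2.26 points (exact test, adjusted p = 6.61e-05). A GENCODE TSS lay within 2500 bp of 206 members (44.2%), against 73.9% of all RING1B peaks and 38.4% of sites without PCGF2, and here the difference of 5.95 ± 3.23 points did not pass (exact test, adjusted p = 0.120). Together, 261 members (56.01%) had a predicted or GENCODE TSS at this distance, 101 of them in both annotations. The same was true of 77.1% of all RING1B peaks and 46.8% of sites without PCGF2. All RING1B peaks include promoter peaks, which the rule removed from the members, so their shares of TSSs are not a like base. At the 5043 non-promoter RING1B peaks under 8000 bp without SUZ12 or PCGF2, the share was 31.4%, and 15.5% had a predicted TSS. Those peaks were narrower (median 951 bp), and the part of width in these shares was not tested.

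The kinds of transcript behind these start sites were mixed. Predicted coding transcripts began within 2500 bp of 89 members and predicted non-coding ones also of 89. GENCODE transcripts labelled protein-coding began within 2500 bp of 75 members, and those of long non-coding RNA genes of 67. Retained-intron or processed transcripts of coding genes began this near to 75. A site can be in several of these counts. The counts were not taken over all RING1B peaks, so they describe the members without setting them apart.

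The remaining 205 members (44.0%) had no TSS within 2500 bp in any of the 3 annotations. Their median CpG observed/expected was 0.573 (interquartile range 0.429 to 0.703) against 0.640 (0.494 to 0.758) for the 261 others. It was 0.583 over all RING1B peaks. An island was present at 192 of them (93.7%) and at 255 of the others (97.7%). Their RING1B peaks were about as wide (medians 3623 and 3672 bp) and PCGF2 covered a similar part of them (medians 55.5% and 58.1%). They overlapped a curated exon at 82 sites (40.0%), against 80 (30.7%) of the others. These 2 subsets were compared by description only.

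Relative to curated genes, 205 members had their midpoint within a transcript (44.0%, Wilson 95% interval 39.6 to 48.5), of which 107 were in an exon and 98 in an intron, and 261 were intergenic. The intragenic share was 62.5% over all RING1B peaks and 47.3% at non-promoter sites without PCGF2, from which members differed by -1.19 ± 2.92 points (exact test, adjusted p = 0.808). Members overlapped an exon in 34.8% of cases, against 70.4% of all RING1B peaks and 36.3% of sites without PCGF2, a difference of 0.287 ± 4.21 points (exact test, adjusted p = 0.947). The standard errors leave room for differences of several points in either direction. All RING1B peaks include promoter peaks, which the rule removed from the members, so they are not a like base. At the 5043 non-promoter RING1B peaks under 8000 bp without SUZ12 or PCGF2, the intragenic share was 38.3% and the exon share 18.3%. Those peaks were narrower (median 951 bp), and the part of width in the exon share was not tested. The end of a curated transcript lay within 2500 bp of 104 members (22.3%) and of 20.2% of all RING1B peaks.

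**Figure D5:**
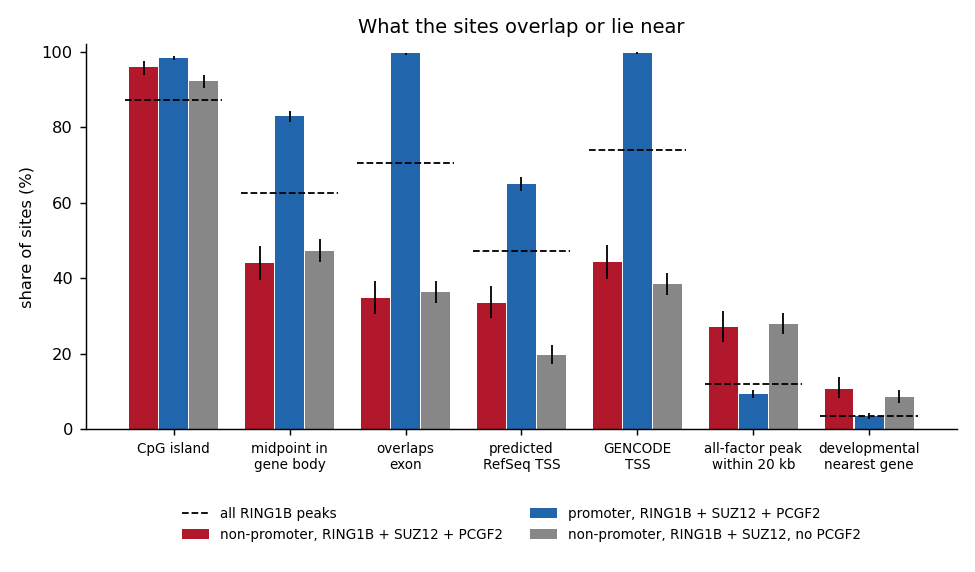
Share of sites in percent with each feature for the 3 classes, with Wilson 95% intervals, and for all RING1B peaks (dashed lines). Shares of exon and TSS overlap at promoter sites follow from the promoter rule, and all RING1B peaks include promoter peaks. The non-promoter sites with all factors exceed the non-promoter sites without PCGF2 in predicted RefSeq TSSs (33.5% and 19.7%). Another all-factor peak lies within 20 kb of 27.0% of them, 28.0% of non-promoter sites without PCGF2 and 9.27% of promoter sites.

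The distance to the next peak was measured within the lists that chose the members, so it is a description, with no test. Another RING1B peak of any width with SUZ12 and PCGF2 was within 20 kb, edge to edge, of 126 members (27.0%, Wilson 95% interval 23.2 to 31.2). The same was true of 11.9% of all RING1B peaks, 9.27% of promoter sites and 28.0% of non-promoter sites without PCGF2. The mean difference from promoter sites over autosomes was 16.2 ± 2.95 points. That from sites without PCGF2 was -0.969 ± 3.23 points. Counting RING1B peaks of any kind instead, the difference from sites without PCGF2 was -12.5 ± 3.16 points. A promoter peak with all factors was within 20 kb of 95 members, and an all-factor peak of 8000 bp or more within 20 kb of 36. The median gap to the next all-factor peak was 65.7 kb for members and 205 kb for promoter sites.

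Members were also grouped with each other, leaving all other peaks out. Chaining members with gaps of at most 50 kb gave 29 groups of 2 or more, with 62 members, and left 404 ungrouped. Ungrouped members were not thereby isolated. The median gap to any other RING1B peak was 14.2 kb for members and 18.5 kb for all RING1B peaks. The other classes were not chained, so these counts have no comparison. The group with the most members had 5 sites in 87.2 kb at chr19:44639568-44726804, around the gene Gm26644 and upstream of Pax2, a paired-box transcription factor of kidney and eye development. All 5 midpoints were intergenic, and in order along the chromosome these sites measured 1793, 4625, 3701, 2119 and 7863 bp and had a CpG observed/expected of 0.430, 0.636, 0.157, 0.451 and 0.186. CpG content thus varied widely among neighbours, and only 1 of the 5 had a lower value than the widest. The next group had 3 sites in 48.1 kb at chr15:103056141-103104288, beside Hoxc4 at the edge of the HoxC cluster, which measured 7452, 7365 and 3872 bp with an observed/expected of 0.584, 0.529 and 0.602. The shortest of the groups of 2 spanned 6.40 kb near Pcdh1, a protocadherin, with sites of 3747 and 1548 bp.

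Only 2 genes were nearest to 3 or more members. Gm26644 was nearest to the first 4 sites of the chromosome 19 group. Gm12830, a non-coding gene on chromosome 4, was nearest to 3 sites, 171.9 and 152.3 kb upstream of it and 18.6 kb downstream of its start, within its body. These measured 1998, 3962 and 6534 bp with an observed/expected of 0.416, 0.348 and 0.621.

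The 5 highest values of CpG observed/expected were at sites 13.6 kb or more from a curated TSS. They were 1.12 at the site in an intron of Tenm3, which encodes a teneurin of neuronal wiring, 1.11 upstream of Lin28b, an RNA-binding regulator of let-7 processing, 1.07 in an exon of Apba1, a synaptic adaptor, 1.04 upstream of Naaladl2 and 1.04 beyond Irx5, an Iroquois homeobox gene. Their distances were 118.5, 13.6, 131.9, 359.5 and 100.5 kb. Those at Tenm3, Lin28b and Naaladl2 had both a predicted and a GENCODE TSS within 2500 bp, and those at Apba1 and Irx5 had neither. The GC content of the 1000 bp was 50.2% at Tenm3 and 76.7% at Lin28b, so the same observed/expected went with 70 CpGs at the one and 161 at the other.

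Among the lowest values, 4 that ran from 0.0949 to 0.127, with 5 or 6 CpGs in 1000 bp, were at the sites nearest to Dgkz, a diacylglycerol kinase, to Gm46735, to Rasgrf1, an imprinted Ras exchange factor gene, and to Mir6546. These 4 were intergenic, with RING1B peaks of 6182, 7196, 3400 and 4571 bp. PCGF2 covered 90.1% of the Rasgrf1 site, but 29.5% of the Dgkz site and 19.9% of the Mir6546 site. Low CpG at the midpoint therefore went with wide as well as narrow PCGF2 cover.

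The widest members were the Foxo6, Pax2 and D930028M14Rik sites already given, a site of 7797 bp downstream of Ppp1r15b and one of 7704 bp in an intron of Kcnk3, a potassium channel gene. The Foxo6 site covered an exon of this forkhead gene 15.0 kb from its TSS and had 125 CpGs in 1000 bp, with a GC content of 76.0%. PCGF2 covered 51.4%, 44.4%, 68.9%, 30.4% and 26.1% of these 5 sites in that order. With the members split by width into 3 groups of 156, 154 and 156, PCGF2 cover had medians of 61.7%, 52.7% and 52.7% from the narrowest to the widest, whereas CpG observed/expected had medians of 0.6002, 0.629 and 0.590.

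The members farthest from a curated TSS were in an intron of Opcml (610.3 kb from the TSS), a neural cell adhesion gene, upstream of Sgcd (607.0 kb), downstream of Gm2516 (545.5 kb), in an exon of Ctnnd2 (390.6 kb from the TSS of 4930430F21Rik) and upstream of Naaladl2 (359.5 kb). Their CpG observed/expected was 0.652, 0.760, 0.693, 0.810 and 1.04. All 5 had a GENCODE TSS within 2500 bp and 4 of them also a predicted RefSeq TSS.

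The nearest curated gene belonged to a list of developmental transcription factor and signalling families at 50 members (10.7%, Wilson 95% interval 8.23 to 13.9), against 3.49% of all RING1B peaks. The list holds 418 of 26180 curated genes. The share was 3.38% at promoter sites, a difference of 6.98 ± 1.42 points (exact permutation test, adjusted p = 0.000149, higher on 16 of 19 autosomes). The rule puts a curated TSS within 2500 bp of every promoter site, whereas that of members was a median of 22.3 kb away. The nearest gene is therefore not a like measure in these 2 classes, and the test cannot set members apart by it. The gene list was also chosen with earlier results of these data known. With no upper limit on width in either class the difference was 2.60 ± 1.503 points and did not pass (exact test, adjusted p = 0.220). At non-promoter sites without PCGF2 the share was 8.52%, a difference of 1.90 ± 1.93 points (exact test, adjusted p = 0.437).

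Of these 50 members, 43 were nearest to a transcription factor gene and 7 to a signal. The homeobox genes were Barhl2, Barx1, Dbx1, Dlx4, Dmbx1, Evx1, Evx2, Gbx2, Gsx1, Hoxc4, Irx5, Lmx1a, Lmx1b, Mnx1, Nkx6-1, Six2 and Six3. The forkhead genes were Foxa2, Foxd1, Foxo6 and Foxp4, and the SOX genes Sox1, Sox4 and Sox17. The other factor genes included Atoh8, Dmrt3, Dmrta1, Ebf1, Eomes, Eya1, Nr2f1, Pax2, Prdm1, Prdm12, Ptf1a, Sim2 and Tbx4. The signals were the ligands Bmp4, Gdf6, Wnt2b, Wnt3, Wnt3a, Wnt7b and Wnt8b, each with 1 site. Barhl2, Hoxc4, Lmx1a and Nkx6-1 had 2 sites each. The sites lay 3.51 to 192.9 kb from these TSSs (median 28.1 kb), 25 upstream and 25 downstream, and 13 within a curated transcript. Their median CpG observed/expected was 0.528, against 0.628 for the 416 other members. Another all-factor peak lay within 20 kb of 28 of 50, against 98 of 416 and 11.9% of all RING1B peaks. These neighbour counts come from the lists that chose the sites and are a description only. The gap was 0.627 kb at the Foxa2 site, under a SUZ12 peak of 25660 bp, and 191.5 kb at the Eya1 site. Whether such neighbours are parts of 1 domain was not tested.

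Short motifs were searched on both strands in the 1000 bp windows. The E-box CACGTG was present at 20.8% of members, 16.2% of promoter sites, 21.2% of non-promoter sites without PCGF2 and 25.4% of all RING1B peaks. The T-box element AGGTGTGA was present at 4.72% of members, 3.18% of promoter sites, 5.21% of sites without PCGF2 and 4.67% of all RING1B peaks. The E2F6-type letters GGCGGGAA were present at 6.65% of members, 9.11% of promoter sites, 4.81% of sites without PCGF2 and 8.62% of all RING1B peaks. A part of the REST element, GGACAGCG, was present at 4.94% of members, 9.31% of promoter sites, 4.31% of sites without PCGF2 and 5.84% of all RING1B peaks. A part of the CTCF element, CCACNAGG, was present at 17.4%, 18.1%, 20.8% and 19.1% in the same order. CpG content differs between the classes and several of these motifs hold a CpG. Its part in these shares was not tested, and the shares are a description only.

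The members were found on every autosome and on X. Chromosomes 2 and 11 held 47 each, and the X chromosome 12, which entered no test. As a share of all sites under 8000 bp with the 3 factors, members made up 15.8% in all and from 8.86% (chromosome 3) to 21.1% (chromosome 13) of an autosome's.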

How the data were processed

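The values analysed were 3 deposited peak lists, each giving the chromosome, start and end of every peak in bp. To make them, the authors mapped read pairs by Bowtie 2 onto mm10 plus hg19 (for the spike-in), discarded multi-mapping and duplicate reads (Sambamba), and ran MACS2 in broad mode with Input as background. RING1B and SUZ12 peaks were called on merged replicates and kept where both cell lines had them, and RING1B peaks also had to lose signal on tamoxifen in PRC1CKO cells. PCGF2 peaks were called per replicate in PRC1CPM cells and kept where all replicates had them. Merging and broad calling can join neighbouring sites and set their widths. The series here has 118 samples in 42 groups, taken from the labels, of which the other antibodies and treatments were not analysed here.

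TSSs, exons and transcripts were those of RefSeq on GRCm38.p6 (curated accessions, or predicted ones where stated), and GENCODE vM21 gave a further set of TSSs. Gene bodies were single transcripts. CpG observed/expected was the CpG count over that given by C count times G count over length. For each autosome with at least 5 sites of both classes the median (CpG observed/expected) or mean (shares) of the comparison class was subtracted from that of the members, and all sign patterns over the 19 autosomes were enumerated. Neighbour distances come from the lists that chose the sites and are reported without their p-values, which stayed in the adjustment over 13 comparisons. Intervals of shares are Wilson 95% intervals, which treat sites as independent and cover counting error only. The code was tested on simulated data. Python 3.11.15, NumPy 2.4.6, pandas 2.3.3 and matplotlib 3.10.9 were used.

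The sites, the comparison classes and the gene list were chosen with earlier results of these data known. The sites named are, by rule, the 5 widest, those with the 5 highest and 5 lowest CpG observed/expected, the 5 farthest from a curated TSS, the 3 largest groups chained within 50 kb, those next to the limits of 8000 bp and 2500 bp, and those of genes nearest to 3 or more members. The listed developmental genes nearest to a member were named as well. One item that these rules select is not reported here. Alternatives changed the overlap, the promoter, the width limit, merging, chromosomes, windows, the island definition, the neighbour distance and the gene assignment.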

Additional observations from a re-analysis of the deposited data

How the results depend on the processing

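No paired analysis was possible because each list gives positions without replicate values, nor could a replicate be left out. Of 193 values recomputed under the alternatives, 165 were counted as unchanged. A mean difference over autosomes had to keep its direction and its side of the threshold, and the number of sites to stay within 1.5 times. A difference pooled over all autosomes has no test. It had to keep its direction and lie within the SD over autosomes of the main value. The number of sites was 466, and 274 when at least 50% of each peak had to overlap, 310 when predicted TSSs also made a promoter and 260 when GENCODE TSSs did. GENCODE, the exclusion of chromosome 11 and the use of midpoints for predicted TSSs and exons were added after seeing the data.

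Against sites without PCGF2, CpG observed/expected differed by -0.000845 over the whole peak. The CpG island difference from promoter sites lost its call with 50% overlap (-1.58 points), with no width limit (-1.57) and with stretches inside the peak (-0.707). That from sites without PCGF2 lost it with promoters of 1000 bp (2.98), no width limit (1.70), merged peaks (1.81) and GENCODE promoters (4.56). The repeat difference from sites without PCGF2 passed with GENCODE promoters (-2.07) and a 2000 bp window (-2.67) and had the other sign over the whole peak (1.85). The predicted TSS difference missed the threshold with GENCODE TSSs in their place (5.95), and the developmental difference from promoter sites with no width limit (2.60).

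The difference from sites without PCGF2 in neighbours within 20 kb is a description, with no test. It had the other sign with predicted TSSs as promoters (2.24), no width limit (0.899), merged peaks (0.953) and 50 kb (2.58). For RING1B peaks of any kind it was -12.5. Among tested differences from these sites that had not passed, the intragenic difference had the other sign with predicted (6.13) and GENCODE (3.24) promoters. The exon difference had it with 50% overlap (-0.788), promoters of 5000 bp (-0.131), widths of 1000 bp or more (-0.308), merged peaks (-0.242) and pooling (-1.37). The causes of these changes were not tested. Depth is not known from the lists, so a site absent from a list may have lacked reads.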
